A study of Homo sapiens with 7 samples.

Results

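The zinc finger gene clusters of chromosome 19 were examined for 5-hydroxymethylcytosine (5-hmC), the base that TET enzymes make by oxidising 5-methylcytosine, in SK-N-BE(2) cells kept in low oxygen. A 5-hmC peak was a member when its midpoint lay, in hg19, in one of 6 stretches of chromosome 19, numbered here from the short-arm end: cluster 1 from 11700000 to 12600000, cluster 2 from 19700000 to 24400000, cluster 3 from 36500000 to 38300000, cluster 4 from 43900000 to 45000000, cluster 5 from 52300000 to 53900000 and cluster 6 from 56000000 to 59100000. Position alone made a peak a member, but the choice was made with earlier results of these data known. Members numbered 2169 of the 1873636 peaks in 6 lists, or 307 of 285292 in the shortest list and 429 of 352484 in the longest. Each list comes from 1 library of wild-type SK-N-BE(2) cells, an established neuroblastoma line with amplified MYCN. The first was grown at 21% oxygen (0 h, normoxia) and the others at 1% oxygen (hypoxia) for 6, 12, 24, 48 and 72 h; values below that are given for all lists follow this time order. With 1 library per time no value has a replicate error, and normoxia was sampled only at the start, so that hypoxia and time in culture cannot be told apart. The lists give positions without read counts, so depth is unknown and every interval below covers counting error only.

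KRAB zinc finger genes form the largest family of transcription factor genes in human cells. Their proteins bind DNA through tandem arrays of C2H2 fingers and, through the KRAB domain, recruit the corepressor TRIM28 (KAP1), which brings in histone H3 lysine 9 methylation, and many of them silence transposable elements. The genes arose by tandem duplication and lie side by side, and in many cell types the clusters themselves carry H3 lysine 9 trimethylation, while 5-hmC is best known from the bodies and enhancers of active genes. In the RefSeq annotation of GRCh38.p14, used here for gene order alone since its build differs from that of the peaks, 266 of the 1451 protein-coding genes of chromosome 19 had a symbol starting with ZNF, ZFP, ZSCAN, ZKSCAN, ZIK or ZIM, or were PEG3, an imprinted zinc finger gene. Of these 266, 213 stood in 18 runs of at least 5 such neighbours, the longest being the 27 genes from ZNF737 to ZNF681. The symbols do not show which of the proteins have a KRAB domain, and no gene was joined to a peak. How far the stretches run past the runs of genes was therefore not tested.

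The first question was how many 5-hmC peaks the clusters hold compared with the rest of the chromosome. They were poor in peaks at every time. How reads matching several gene copies were treated is not known. Its effect on peak numbers and empty stretches in the clusters was not tested. The clusters make up 13.2 Mb, or 22.3% of chromosome 19 up to its last peak, and held 4.79% of the chromosome's peaks at 0 h (307 of 6412; 95% Clopper-Pearson interval 4.28 to 5.34%). In normoxia this came to 23.3 peaks per Mb, against 133 per Mb in the rest of the chromosome, whose length includes the centromere. By 72 h the densities were 32.5 and 151 peaks per Mb. Of the 132 windows of 100 kb that tile the clusters, 64 held no peak in normoxia and 41 held none at 72 h, and 28 were empty in all lists. Of the windows that held a peak in any list, the 104 of the clusters had a median of 1 peak in normoxia and 2 at 72 h, and the 383 of the rest of the chromosome had 13 and 16.

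Peaks in the clusters were also narrower, in 6 of 6 lists. Their median width, in time order, was 349, 365, 344, 353, 363 and 374 bp, and in the rest of the chromosome 431, 459, 449, 456, 465 and 476 bp. Peaks of at least 1000 bp made up 4.56% of cluster peaks in normoxia (14 peaks) and 5.13% at 72 h (22 peaks), against 12.2% and 15.1% in the rest. The ratio of the median widths, clusters over rest, ran from 0.766 to 0.810. It did not pass a test against hours, with Pearson's r = -0.29 (p = 0.576 by exact two-sided permutation of all 720 orders; 0.576 after Benjamini-Hochberg adjustment for 3 measures) and Spearman's rho = -0.429 (p = 0.419 by exact permutation, 0.419 after adjustment).

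The second question was whether the clusters followed the general increase in peaks over time in hypoxia. The share of chromosome 19 peaks that lay in the clusters rose over the time order of the lists. The lists also grew longer at each time, from 285292 peaks at 0 h to 352484 at 72 h. Tests of a share against hours, here and below, therefore cannot tell hours from list length. The clusters held 307, 319, 335, 357, 422 and 429 peaks in time order, an increase of 39.7% by the last list. The rest of the chromosome held 6105, 6061, 6160, 6304, 6811 and 6917, an increase of 13.3%. The clusters' share of the chromosome's peaks was thus 4.79, 5.00, 5.16, 5.36, 5.83 and 5.84%, each list above the one before it. Against hours, Pearson's r was 0.95 (p = 0.00139 by exact two-sided permutation, 0.00208 after adjustment) and Spearman's rho was 1 (p = 0.00278 by exact permutation, the smallest that 6 lists allow, and 0.00417 after adjustment). When the lists of 48 and 72 h, the times farthest from the median, were left out, r was 0.98 over 4 lists. When only the 285292 widest peaks of each list were kept, r was 0.81 and the test was not passed (p = 0.0556 by exact permutation, 0.0833 after adjustment). With peaks of at least 500 bp, r was 0.92 (p = 0.0153 by exact permutation, 0.0229 after adjustment), but rho was 0.771 and did not pass (p = 0.103 by exact permutation, 0.154 after adjustment).

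**Figure D1:**
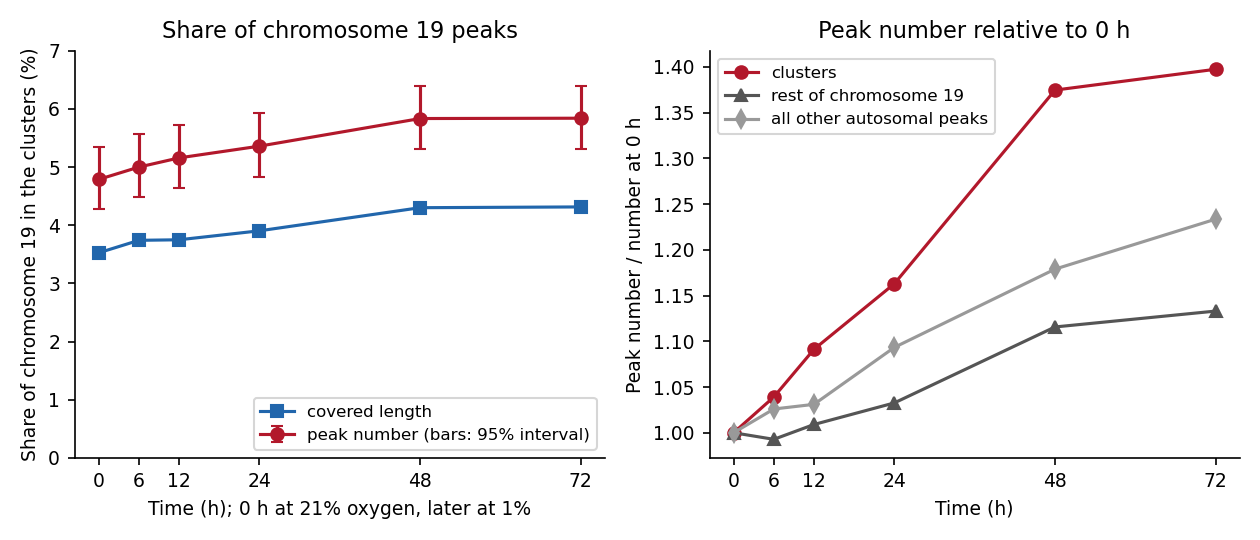
Left, the share (%) of chromosome 19 peaks (circles, with 95% Clopper-Pearson intervals) and of covered length (squares) that lay in the zinc finger clusters, by hours, with 1 library per time. Right, peak number divided by that at 0 h for the clusters, the rest of chromosome 19 and all other autosomal peaks; at 72 h the values were 1.40, 1.13 and 1.23.

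The length covered by peaks gave a like picture. In time order, peaks covered 133, 149, 148, 160, 197 and 206 kb of the clusters, and the last value was 1.55 times the first, against 1.25 times in the rest of the chromosome. The clusters' share of the covered length of chromosome 19 rose from 3.53% to 4.31%, with r = 0.96 (p = 0.00139 by exact permutation, 0.00208 after adjustment) and rho = 1 (p = 0.00278 by exact permutation, 0.00417 after adjustment). Over the 4 lists up to 24 h, r was 0.94. With peaks of at least 500 bp, and with the clusters shortened by 100 kb, r passed but rho did not (0.943 and 0.886, p = 0.0167 and 0.0333 by exact permutation, 0.05 after adjustment in both). The share of peak number with shortened clusters likewise passed by r and not by rho (0.943, p = 0.0167 by exact permutation, 0.05 after adjustment). With only the widest peaks of each list the test of r was again not passed (r = 0.89, p = 0.0264 by exact permutation, 0.0792 after adjustment). Between the first and the last list the mean width of a cluster peak went from 435 to 481 bp.

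Relative to normoxia, the number of peaks at 72 h was multiplied 1.23 times as much in the clusters as in the rest of chromosome 19 (exact conditional 95% interval 1.06 to 1.44). With only the widest peaks of each list this value was 1.10 (0.930 to 1.29), and with peaks of at least 500 bp it was 1.24 (0.920 to 1.67), both intervals that include 1. For the earlier hypoxia lists, in time order, the same comparison gave 1.05, 1.08, 1.13 and 1.23, and only the last of these 4 had an interval above 1 (1.06 to 1.44). Set against all other autosomal peaks in place of the rest of the chromosome, the 72 h value was 1.13 (0.976 to 1.32), an interval that includes 1. The rest of chromosome 19 itself gained less, at 1.13 times, than the autosomes outside the clusters, at 1.23 times.

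Peak density moved with this result. Of the 104 cluster windows with a peak in any list, 83 (79.8%) fell in the 2 sparsest deciles of autosomal 100 kb windows. Outside the clusters, peak number at 72 h over 0 h was 2.19 in the sparsest decile and 1.06 in the densest. When each cluster window was given the ratio of its decile, 455 cluster peaks were expected at 72 h and 429 were found, a ratio of 0.943 (95% counting interval, with the expected ratio taken as fixed, 0.813 to 1.10), and for the rest of chromosome 19 the ratio of found to expected was 0.969. Adjusted in this way, the value of clusters over rest was 0.973 at 72 h (0.835 to 1.14) in place of 1.23, and its interval includes 1. For the earlier hypoxia lists it was 1.02, 1.06, 1.01 and 0.994 in time order, each with an interval that includes 1, so that no difference in gain between the clusters and the rest was detectable once density was taken into account. In the sparsest decile the 65 cluster windows went from 41 to 88 peaks, 2.15 times, and in decile 2 the 18 windows went from 45 to 68, 1.51 times, where the windows outside had 1.74.

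**Figure D2:**
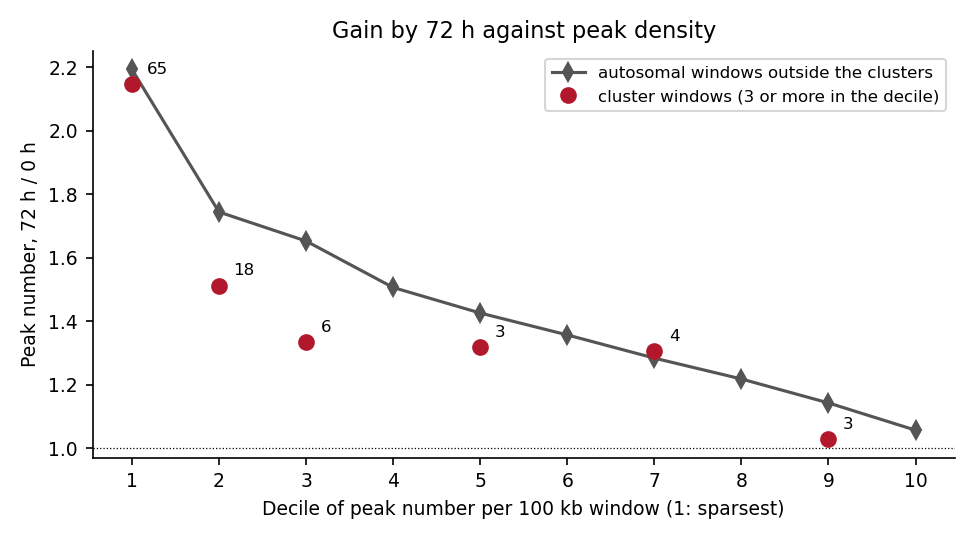
Peak number at 72 h divided by that at 0 h against the decile of peak number per 100 kb window (mean over all 6 lists; decile 1 is the sparsest). Diamonds are autosomal windows outside the zinc finger clusters, falling from 2.19 to 1.06; circles are cluster windows, with their number beside each, and lie below the diamonds in 5 of the 6 deciles shown. The 3 deciles with 1 or 2 cluster windows each (5 windows in all) are not drawn.

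The clusters differed among themselves in density. Cluster 5 was the sparsest in each list, with 6.88 peaks per Mb in normoxia and 14.4 at 72 h. Cluster 4 was the densest, with 40 and 61.8 peaks per Mb, followed by cluster 6 with 38.4 and 46.5. Cluster 1 had 22.2 and 26.7, cluster 3 had 21.1 and 32.2, and cluster 2, the longest at 4.7 Mb and the one next to the centromere, 16 and 23.8 peaks per Mb. All 6 stayed below the rest of the chromosome in each list. These densities are means over uneven stretches. In cluster 4 the 100 kb windows from 43.9 to 44.3 Mb held 9, 13, 6 and 13 of its 44 normoxia peaks. At 72 h they held 13, 19, 9 and 16 of 68, so that the rank of cluster 4 rests largely on that end. Whether zinc finger genes lie in these windows was not tested. In cluster 6 the windows starting at 56, 56.1 and 56.6 Mb held 20, 22 and 30 of its 119 normoxia peaks.

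By number, in time order, cluster 2 held 75, 81, 81, 97, 110 and 112 peaks, the largest addition of the 6 by 72 h. Cluster 4 held 44, 55, 65, 56, 70 and 68, so that its list of 12 h stood above that of 24 h. Cluster 3 held 38, 45, 42, 43, 56 and 58, with both late times above the others. Cluster 5 had few peaks, with 11, 12, 18, 16, 21 and 23, and its last number was 2.09 times its first. In cluster 1 the numbers were 20, 17, 18, 24, 23 and 24. Cluster 6, at the end of the long arm, had 119, 109, 111, 121, 142 and 144, fewer in the lists of 6 and 12 h than in normoxia. Relative to the rest of chromosome 19, the ratio of 72 h to normoxia was 1.06 in cluster 1, 1.32 in cluster 2, 1.35 in cluster 3, 1.36 in cluster 4, 1.85 in cluster 5 and 1.07 in cluster 6. Each of these 6 ratios has a 95% interval that includes 1, for example 0.830 to 1.38 in cluster 6 and 0.863 to 4.20 in cluster 5.

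For single clusters, the share of chromosome 19 peaks passed the test against hours in 0 of 6 after Benjamini-Hochberg adjustment for the 6 clusters, by r or by rho. Unadjusted p lay below 0.05 in 3 clusters by r and in 2 by rho. The highest r were those of cluster 2 (r = 0.90, p = 0.0125 by exact permutation, 0.075 after adjustment), cluster 3 (r = 0.86, p = 0.0347 by exact permutation, 0.075 after adjustment) and cluster 5 (r = 0.85, p = 0.0375 by exact permutation, 0.075 after adjustment). When the lists of 48 and 72 h were left out, r over 4 lists was 0.95, 0.20 and 0.68 in these 3 clusters, so that the relation of cluster 3 rests on those lists. Whether the clusters differ from each other in their course was not tested.

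**Figure D3:**
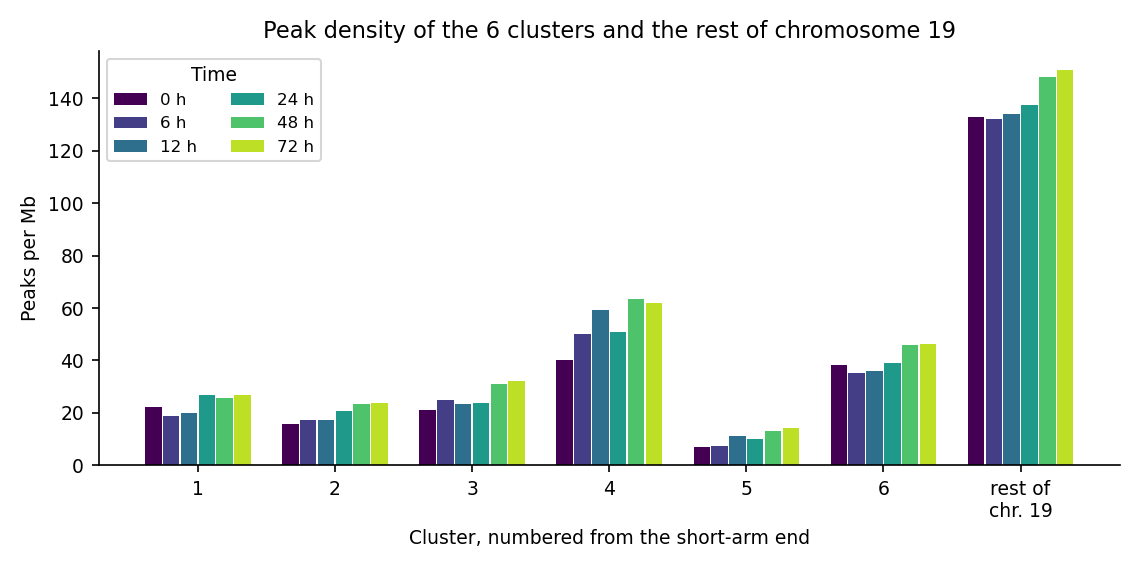
Peaks per Mb in each zinc finger cluster and in the rest of chromosome 19, by time (bar colour, 0 to 72 h from dark to light), with 1 library per bar. Cluster 5 lies lowest, at 6.88 to 14.4 peaks per Mb, cluster 4 is the densest, at 40 to 63.6, and the rest of the chromosome lies at 132 to 151.

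Within the clusters, peaks lay unevenly. The outermost 200 kb on both sides of each cluster make up 24 of the 132 windows (18.2%) and held 148 of the 307 peaks in normoxia (48.2%) and 196 of 429 at 72 h (45.7%). In normoxia there were 6.17 peaks per window at the edges and 1.47 in the cores, and by 72 h 8.17 and 2.16. Peak number at 72 h over 0 h was 1.32 at the edges and 1.47 in the cores. Just inside the 12 edges, the first 100 kb window held 6.25 peaks on average in normoxia, and just outside it held 9. The medians over the 12 edges lay the other way, at 4.5 inside and 2.5 outside, and a few edges carried the mean outside, such as the starts of clusters 2 and 4 with 27 and 28 peaks. Low normoxia numbers outside include 2 peaks past the end of cluster 6, where the chromosome's last peak ended at 59.118 Mb. They also include 0 peaks past the end of cluster 2, next to the centromere. A step at the typical edge is therefore not shown.

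**Figure D4:**
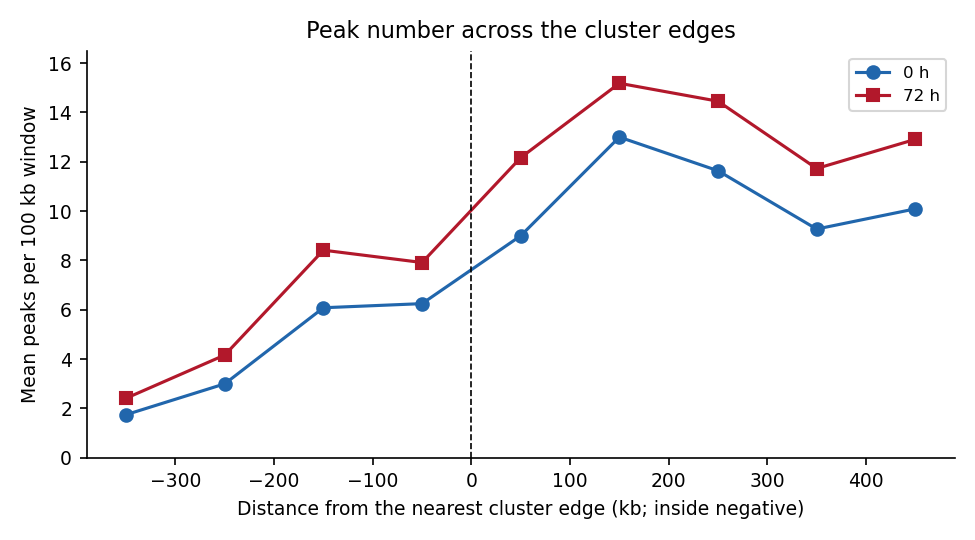
Mean number of peaks per 100 kb window against distance (kb) from the cluster edges, inside to the left of the dashed line, over 11 or 12 edges per point, at 0 h (circles) and 72 h (squares). At 350 kb inside an edge the mean was 1.75 in normoxia and 2.42 at 72 h. At 150 kb outside it was 13 and 15.2. The means outside include the windows past the end of cluster 2, next to the centromere, which held 0 peaks.

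The 10 densest windows in each list held 52.4% of cluster peaks in normoxia and 44.1% at 72 h. The fullest in both lists was that of cluster 6 from 56.6 to 56.7 Mb, with 30, 23, 28, 29, 28 and 27 peaks in time order, its highest number being that of normoxia. The region in it from 56617409 to 56624154 held 7 peaks in normoxia, 3 at 6 h and 6 at 12 h. They covered 5912, 6427 and 5704 bp, so that peak number and covered length need not move together.

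Between these islands lay long stretches without a 5-hmC peak in any list. Stretches of at least 100 kb numbered 34 and took up 5848 kb, or 44.3% of the clusters' length. The longest lay in cluster 3, on chromosome 19 from 37283007 to 37718850 (436 kb), and the next in cluster 6 from 56215736 to 56592964 (377 kb). Cluster 2 had 16 such stretches, which took up 52.4% of its length, the longest from 22466977 to 22763732 (297 kb). In cluster 4, the densest, there was 1, of 120 kb. In single lists such stretches could be longer, and in cluster 6 that of normoxia ran from 56907798 to 57702316 (795 kb).

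Windows of 100 kb were called higher or lower than in normoxia by size alone. A call needed a difference of at least 5 peaks and a ratio (after 0.5 was added to each number, and relative to the list totals) of 1.5 or more, or of its inverse or less. At 72 h, 2 of the 104 cluster windows were higher (1.92%), where 7.75% of all 24373 windows of chromosomes 1 to 22 and X were, and 0 were lower, where 0.418% of all windows were. At 48 h, 3 cluster windows were higher, with 5.14% of all windows called, and 0 were lower, with 0.361% called. A window with few peaks reaches the difference of 5 less easily, and the median of these cluster windows was 1 peak in normoxia. The 2 windows called at 72 h were that of cluster 2 from 23.3 to 23.4 Mb, with 0, 2, 3, 5, 3 and 5 peaks in time order, and that of cluster 6 from 58.9 to 59 Mb, with 2, 7, 8, 10, 9 and 8. Both lay above normoxia in all 5 hypoxia lists and reached their highest number by 24 h. With 6 h in place of normoxia as the reference, 0 cluster windows were higher at 72 h.

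The third question was which sites were kept and which came and went. Peaks that overlapped, whatever their list, were joined into 1 region each, and 590 of these regions had their midpoint in the clusters. A total of 167 cluster regions (28.3%; 95% interval 24.7 to 32.1%) were present in all 6 lists, against 46.9% of the 8111 regions in the rest of chromosome 19 (45.8 to 48.0%) and 46.8% of the 415474 regions of the genome. Regions seen in 1 list alone numbered 154 (26.1%; 22.6 to 29.8%), against 18.2% in the rest (17.4 to 19.1%) and 17.9% of all regions. These intervals of clusters and rest do not overlap. The shares were not adjusted for peak width or peak density, in which the clusters differ from the rest. In cluster 5, 2 of 36 regions were in all lists, and in cluster 6 69 of 187 were.

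Regions that normoxia lacked and all 5 hypoxia lists held numbered 19 in the clusters (3.22%; 95% interval 1.95 to 4.98%), beside 2.97% in the rest of the chromosome and 2.99% of all regions. This share was near the background. The same count for a region missing from 1 hypoxia list and held by the other 5 lists was 10, 11, 11, 6 and 2 from the earliest to the latest time (1.69, 1.86, 1.86, 1.02 and 0.339%), where 1.71, 1.67, 0.965, 0.642 and 0.985% of all regions were of these kinds. In normoxia alone were 17 regions (2.88%; 1.69 to 4.57%), beside 2.71% in the rest and 1.84% of all regions. Cluster regions in the 72 h list alone numbered 52 (8.81%; 6.65 to 11.4%), beside 5.36% in the rest (4.88 to 5.88%) and 7.13% of all regions, and a further 45 (7.63%; 5.62 to 10.1%) were in the 48 h list alone, beside 4.28% in the rest (3.85 to 4.74%) and 3.44% of all regions. The lists of 48 and 72 h shared 20 regions found in no other list (3.39%), where 3.61% of all regions were of this kind.

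Among the 19 regions gained by 6 h and kept, the one with the widest 72 h peak lay in cluster 3 from 36558957 to 36559632, with peaks of 297, 527, 534, 645 and 645 bp over the 5 hypoxia lists. The next lay in cluster 1 from 11882050 to 11882852, with 245, 399, 320, 711 and 644 bp. Another, in cluster 2 from 20259448 to 20260021, had 300, 295, 399, 292 and 551 bp. The 5 regions named here were picked for a wide 72 h peak, so that a widening toward 72 h cannot be read from them. Cluster 4 held the other two, from 44282226 to 44282787 (439, 243, 243, 501 and 516 bp) and from 44030324 to 44030918 (517, 563, 244, 514 and 500 bp), the first as narrow at 12 as at 24 h and the second narrowest at 24 h. Of the 17 regions in normoxia alone, the widest peaks measured 386 bp (cluster 2, from 20845232 to 20845617), 327 bp (cluster 6, from 56090002 to 56090328), 285 bp (cluster 4, from 44285700 to 44285984), 279 bp (cluster 2, from 20175702 to 20175980) and 275 bp (cluster 3, from 36982655 to 36982929). The peak of 386 bp was wider than the median normoxia cluster peak of 349 bp, and the others named were narrower. The narrowest peak in the normoxia list measured 226 bp.

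Overlap between pairs of lists was also counted. Of the 429 cluster peaks at 72 h, 250 (58.3%; 53.4 to 63.0%) overlapped a normoxia peak by at least 1 bp, against 73.5% of the peaks in the rest of the chromosome (72.4 to 74.5%). Of the 307 normoxia peaks of the clusters, in turn, 265 (86.3%; 82.0 to 90.0%) overlapped a 72 h peak, against 89.1% in the rest (88.3 to 89.8%). Between the lists of 6 and 12 h, 77.7% of the earlier cluster peaks were shared and 85.0% in the rest. Width went with this. Among 72 h peaks of at least 500 bp, 91.9% of 124 cluster peaks overlapped normoxia (85.7 to 96.1%) and 94.1% of those in the rest (93.2 to 94.9%), whereas of narrower peaks 44.6% of 305 did in the clusters (38.9 to 50.4%) and 55.1% in the rest (53.5 to 56.7%).

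In the clusters, 140 regions had exactly 1 peak in each of the 6 lists, which allows widths to be compared at the same site. Their median width was 406.5, 445.5, 410.5, 458.5, 482 and 518 bp in time order. Of these regions 105 (75.0%) were wider at 72 h than in normoxia, where 71.2% of such regions in the whole genome were, and 69.5% of the 2639 in the rest of chromosome 19. The narrowest peak of a list was 226 bp in normoxia and 242 bp at 72 h, and after each list's own narrowest width was taken off, 69.3% were wider in the clusters and 64.5% in the rest. The median ratio of widths was 1.22 in the clusters (quartiles 1.00 and 1.43), 1.11 in the rest and 1.12 over all chromosomes. By cluster it ran from 1.01 in clusters 2 (37 regions) and 3 (16 regions) to 1.35 in cluster 4 (23 regions), leaving out cluster 5 with 1 region.

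Single constant sites moved in both directions. The region of cluster 2 from 23901422 to 23902282 had peaks of 258, 369, 381, 288, 621 and 861 bp in time order, the last 3.34 times as wide as the first. In cluster 6, that from 56182846 to 56183678 had 279, 477, 404, 455, 747 and 833 bp, and in cluster 4 that from 43907083 to 43907648 had 233, 335, 316, 285, 379 and 566 bp. The lists of 48 and 72 h were the widest at these 3 sites. They were picked for the largest ratio of width at 72 h over normoxia, so a wide 72 h peak there follows from the choice. Of the 77 such regions that measured at least 500 bp in the first or the last list, the 3 with the lowest ratio were those of cluster 2 from 19862146 to 19862849 (679 bp in normoxia, 457 bp at 72 h), of cluster 4 from 44235332 to 44236598 (1187 and 823 bp) and of cluster 3 from 36601990 to 36602879 (741 and 634 bp). The second of these held the widest normoxia peak of cluster 4, and in the 5 hypoxia lists it measured between 823 and 960 bp, below normoxia in each.

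Broad peaks were few, and the broadest stood where normoxia had several neighbouring peaks. In cluster 6 the region from 56617409 to 56624154 held 7, 3, 6, 3, 2 and 2 peaks in time order. Its widest peak measured 1499, 4417, 1452, 3776, 6075 and 6085 bp, with the lists of 0 and 12 h apart from the others. The length covered in it was 5912, 6427, 5704, 6447, 6639 and 6652 bp, and of the 6085 bp of the broad 72 h peak, normoxia peaks covered 5452 bp (89.6%), in pieces. The widest normoxia peak of cluster 6 lay at its inner edge, in the region from 56000483 to 56002948, with 2321, 2281, 2339, 2340, 2362 and 2466 bp.

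The widest peaks of the other clusters were narrower. In cluster 1 the widest lay in the region from 12527639 to 12528794 both in normoxia (786 bp) and at 72 h (1101 bp). Cluster 2 had it from 19767423 to 19768816, with 1237 and 1226 bp, at the edge away from the centromere. In cluster 3 it was that from 36610560 to 36611765 in normoxia, with 1045 bp, and at 72 h that from 36658499 to 36660380, with 1501 bp, where normoxia had 2 peaks of 792 bp together. In cluster 4 the widest 72 h peak, of 1029 bp, lay in the region from 44130050 to 44131244, which had 647 bp in normoxia. Cluster 5 had its widest peak in both lists in the region from 52703165 to 52704744, with 817 and 1538 bp.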

How the data were processed

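DNA carrying 5-hmC was labelled, captured and sequenced from 6 libraries of SK-N-BE(2) cells; an input was not used here. Per the labels, each deposited list belongs to 1 library. It has 3 columns that place each peak (chromosome, start, end, in bp) and no other value. The submitters' processing notes name BWA 0.7.17, MACS2, HTSeq and hg19. The sources used here do not give the threshold, the use of the input or the treatment of reads matching several gene copies.

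Peaks were assigned to clusters by midpoint. Shares have Clopper-Pearson intervals and ratios of ratios exact conditional ones. Shares were set against hours by exact permutation of the 6 lists. Named regions were the widest peaks of each cluster, the 5 widest regions gained at all hypoxia times or in normoxia alone, the 3 most widened and 3 most narrowed constant regions, and called windows (up to 3 per direction). Alternatives changed the peak width, the number of peaks per list, the merging, the cluster edges, the density comparison and the window rule. The members and lists were chosen with earlier results of these data known. Functions were tested on simulated lists, where 8 of 8 quantities were recovered. Calculations used Python 3.11.15 with SciPy 1.17.1, NumPy 2.4.6 and pandas 2.3.3; figures used Matplotlib 3.10.9.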

Additional observations from a re-analysis of the deposited data

How the results depend on the processing

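Of 84 alternatives, 67 were counted as leaving a result unchanged. For a test against hours this was judged by r alone, and for a ratio or share by its value lying in the main interval. Numbers of single clusters passing had to be equal, and numbers of windows equal or within 1.5 times. A ratio whose own interval includes 1, or a test in which rho did not pass, could thus count as unchanged. Keeping the 285292 widest peaks of each list, which takes narrow peaks from the longer lists only, ended the calls against time for the share of peak number (r = 0.81, p = 0.0556 by exact permutation, 0.0833 after adjustment) and of covered length (r = 0.89, p = 0.0264 by exact permutation, 0.0792 after adjustment). With each list left out, r ran from 0.94 to 0.99 and from 0.95 to 0.99 (adjusted p from 0.0125 to 0.0375 by exact permutation), and for the width ratio from -0.58 to 0.14. With clusters and rest each set against the numbers expected by density, the ratio of 1.23 became 0.973 (0.835 to 1.14). Single clusters passing the test by r numbered 2 with peaks of at least 500 bp, 1 with peaks merged within 300 bp and 1 with clusters shortened by 100 kb, against 0 with all peaks and 0 with any list left out; these were run after the data were seen. Regions missing from 1 hypoxia list and held by the other 5 made up 1.69% (6 h), 1.86% (12 h), 1.86% (24 h), 1.02% (48 h) and 0.339% (72 h) of cluster regions, the last 4 added after the data were seen. Of all regions, 1.71, 1.67, 0.965, 0.642 and 0.985% were of these kinds. Higher windows at 72 h numbered 0 with peaks of at least 500 bp (3.84% of all windows), 0 with a difference of 10 peaks (0.997%), 0 with 6 h as reference (6.08%), 1 with the widest peaks (2.83%), 1 by covered length with a difference of 2 kb (6.40%) and 1 at 1 Mb (4.26%). The one left by the widest peaks and by length was that from 58.9 to 59 Mb, and the one at 1 Mb that from 20 to 21 Mb, named after its value was seen. What caused these changes was not tested, and the effect of depth has no value here. No paired analysis was possible because each time has 1 library.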
